A study of Mus musculus with 3 samples.

Results

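The genes of cholesterol synthesis, uptake and export described here are 30 mouse genes out of 19747 with a probe on the arrays. They were listed by name for their place in the pathway, with earlier results of these arrays known, and no threshold on a value was used. They comprise 18 enzymes that build cholesterol from acetyl-CoA and 12 genes that take it up, move it, sense it, export it or store it. Expression was measured on 3 Agilent 2-colour arrays, 1 for each of Th2, Th9 and induced regulatory (iTreg) cultures. On every array Cy3 labelled RNA of naive CD4 T cells and Cy5 labelled RNA of the culture, so each ratio is culture over naive.

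Spleens of C57BL/6 mice, 6 to 8 weeks of age, gave the cells, and naive CD4 T cells were separated on magnetic columns. All 3 cultures were then stimulated for 3 days with anti-CD3e at 10 µg/ml and anti-CD28 at 10 µg/ml. Th2 cultures also received IL-2 at 1 ng/ml, IL-4 at 5 ng/ml and anti-IFN-γ at 2 µg/ml. Th9 cultures received IL-2 at 0.2 ng/ml, IL-4 at 1 ng/ml, TGF-β1 at 2 ng/ml and anti-IFN-γ at 5 µg/ml. For iTreg the additions were IL-2 at 0.4 ng/ml, TGF-β1 at 5 ng/ml, anti-IFN-γ at 5 µg/ml and anti-IL-4 at 5 µg/ml. The naive cells were not stimulated, so stimulation and polarisation cannot be told apart in a ratio against naive. Whether the cells of several mice were pooled is not given in the sources used here.

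Cells make cholesterol through the mevalonate pathway, in which acetyl-CoA is condensed and reduced to mevalonate, converted to isoprenoid units, joined to squalene and closed into the sterol ring. The transcription factor SREBP-2, made from Srebf2, switches on these enzymes and lipoprotein uptake when sterol in the endoplasmic reticulum is low, escorted by Scap and retained by Insig proteins, whereas LXR nuclear receptors switch on the exporters Abca1 and Abcg1 when oxysterols are abundant. Activated T cells are known to raise sterol synthesis and to reduce export as they prepare to divide.

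To show the regulatory sequence of genes whose values moved together and of 1 exporter that did not, the 250 bases before the annotated start site of Hmgcs1, Lss, Insig1 and Abca1 are given from RefSeq, build GRCm38.p6, in the direction of transcription. Hmgcs1 and Lss are synthesis enzymes, Insig1 is a sterol sensor and Abca1 an exporter. Capitals mark matches to CCAAT or its reverse complement ATTGG, the letters bound by the NF-Y class of factor, and to TCACNCCA or TCACNCCAC, a sterol regulatory element.
Hmgcs1, chr13:119690101-119690350, plus strand: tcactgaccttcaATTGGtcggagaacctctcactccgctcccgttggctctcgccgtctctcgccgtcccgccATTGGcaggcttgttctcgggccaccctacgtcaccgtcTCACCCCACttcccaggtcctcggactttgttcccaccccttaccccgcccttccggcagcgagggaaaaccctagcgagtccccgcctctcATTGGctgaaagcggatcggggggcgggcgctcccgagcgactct
Lss, chr10:76531355-76531604, plus strand: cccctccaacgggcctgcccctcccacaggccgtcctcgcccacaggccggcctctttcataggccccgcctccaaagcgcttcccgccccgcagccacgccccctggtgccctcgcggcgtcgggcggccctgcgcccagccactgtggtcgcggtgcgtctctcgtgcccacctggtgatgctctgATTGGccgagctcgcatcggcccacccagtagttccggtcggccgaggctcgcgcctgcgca
Insig1, chr5:28071162-28071411, plus strand: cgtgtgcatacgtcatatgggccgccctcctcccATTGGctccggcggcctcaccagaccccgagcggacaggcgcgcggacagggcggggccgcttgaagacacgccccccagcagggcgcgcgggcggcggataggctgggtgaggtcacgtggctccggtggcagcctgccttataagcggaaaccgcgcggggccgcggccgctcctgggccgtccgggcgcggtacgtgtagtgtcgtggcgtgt
Abca1, chr4:53159896-53160145, minus strand: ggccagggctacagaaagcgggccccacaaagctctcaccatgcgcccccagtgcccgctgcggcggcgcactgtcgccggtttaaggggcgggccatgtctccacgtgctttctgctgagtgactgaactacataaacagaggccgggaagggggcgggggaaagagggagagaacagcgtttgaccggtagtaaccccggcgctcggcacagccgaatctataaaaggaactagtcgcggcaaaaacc
The Hmgcs1 stretch holds TCACCCCAC at position -137 from the start site and ATTGG at positions -237, -176 and -45. The Lss stretch holds 1 ATTGG, at -62, and the Insig1 stretch 1, at -216. No capitals fall in the Abca1 stretch.

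Motifs were counted on both strands from 250 bases before to 50 after each start site, in 33 promoters of 24 members. Sqle, Npc1, Fdft1, Abcg1, Fdps and Stard4 had no promoter in this count. Any member promoters on 1 chromosome were left out beforehand, while the promoters of all genes and of measured genes kept that chromosome. CCAAT was found in 22 of the 33 member promoters (66.7%), against 37.4% of all 32851 promoters and 37.9% of promoters of genes above background on all arrays. By gene, 21 of 24 members (87.5%) had a match, against 43.2% of 8360 measured genes, and 14 of the 15 synthesis enzymes with a promoter were among them. The GC box GGGCGG, bound by the Sp1 class, was in 81.8% of member promoters, 35.7% of all promoters and 62.1% of promoters of measured genes. The longer element TCACNCCAC was in 1 member promoter, that of Hmgcs1 (3.03%, against 1.24% of all promoters). Its shorter form TCACNCCA, which overlaps the longer one, was in the promoters of Hmgcs1, Msmo1 and Srebf2 (9.09% against 4.36%). Sterol elements with other letters were not searched, so a promoter without a match may still hold one. The palindrome TCACGTGA was in no member promoter and in 0.974% of all promoters. An exact pair of AGGTCA runs 4 bases apart, 1 form of LXR site, was in no member promoter and in 0.0152% of all promoters. At that rarity no match would be expected in 33 promoters, and pairs with other letters were not searched. Whether the members hold LXR sites was therefore not tested. These counts describe letters in a fixed window, and some start sites of 1 member lie close enough for their windows to overlap, as both of Scap do.

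Each array held 43020 gene spots, of which 53.1% to 54.1% exceeded background clearly (by the scanner software's rule) for naive RNA and 48.9% to 50.9% for culture RNA, and no spot was saturated. The 8 CD4 T cell markers were above background in both channels of all arrays. Foxp3, the defining factor of regulatory T cells, had log2 ratios of -0.68, 1.28 and 3.49 in Th2, Th9 and iTreg. Of 2 CD8 T cell markers, Cd8b1 was above background in both channels of all arrays (0.06, -0.80 and -0.30) and Cd8a in none. Of 6 B cell markers, 2 were above background in each channel, namely Cd79b (2.08, 2.03 and 1.83) and Cd22 (-0.78, -0.85 and -0.01). The summed B cell signal was 1200 to 1233.5 in the naive channels and 2668.7 to 2809 in the cultures, and its part in the results below was not tested. Values below are log2 ratios of culture over naive after within-array loess, in the order Th2, Th9, iTreg, and a value with ± carries the scanner software's error for its spot (n = 1 array). That error covers the spot alone, so differences were classed by size, 2-fold or more, with no p-value. A gene counted as measured when well above background in both channels, and 29 of the 30 members did so on each array, the exception being Vldlr.

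Against naive cells, most of the pathway was higher in each culture. In Th2, 19 of 29 measured members exceeded naive by 2-fold or more and 2 lay below it by as much, where 14.8% of all 10937 measured genes were higher and 14.5% lower. In Th9, 18 were higher and 2 lower, where 15.5% of 10772 genes were higher and 15.6% lower. In iTreg, 19 were higher and 1 was lower, where 10.2% of 11107 genes were higher and 8.14% lower. The members' median log2 ratios were 1.83, 1.94 and 1.36, against -0.02, -0.01 and -0.02 for all measured genes. All 3 comparisons use naive cells as the reference, so their counts are not independent of each other.

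**Figure D1:**
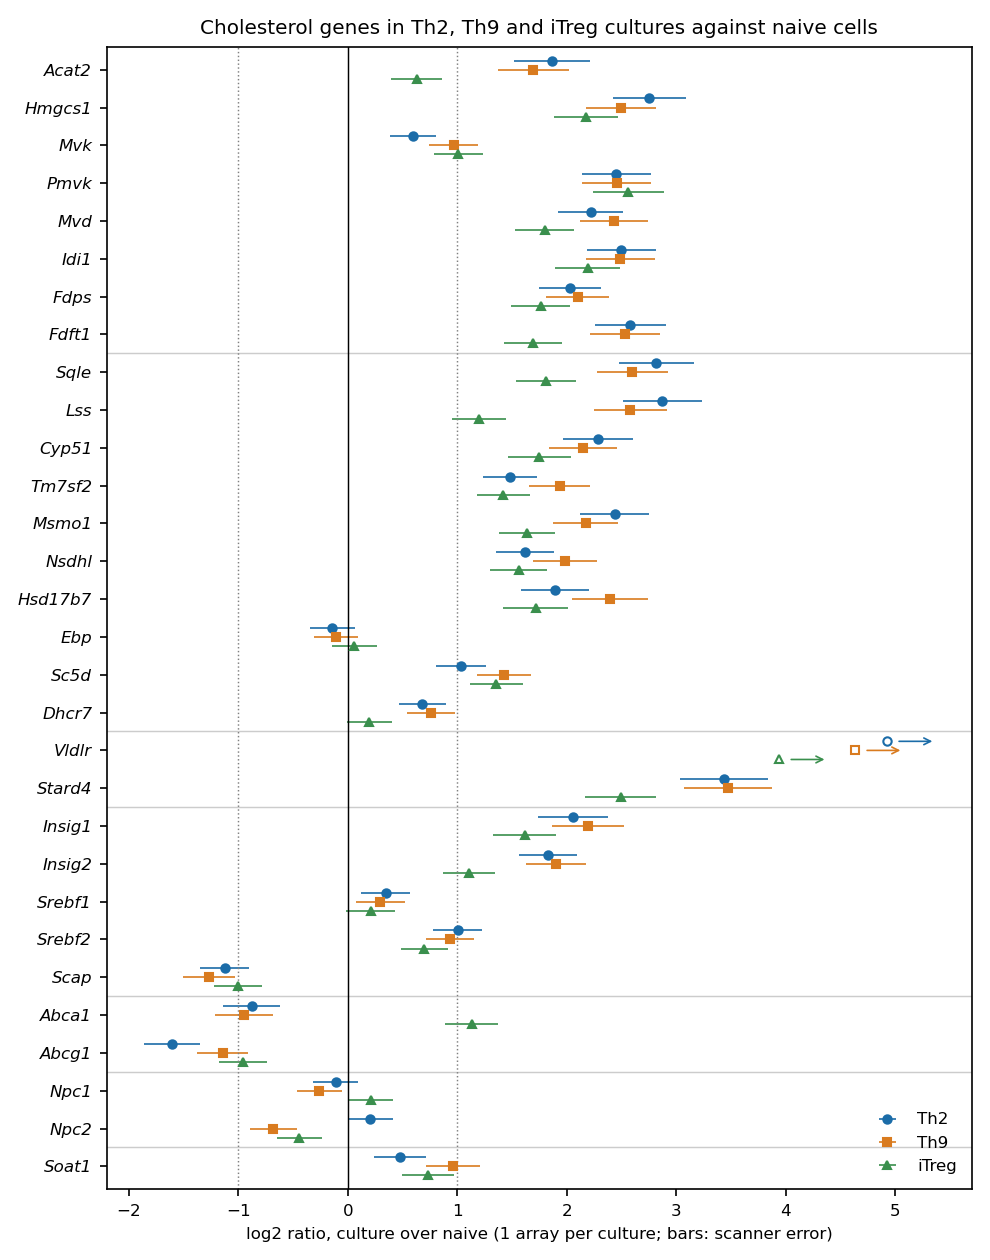
Log2 ratio of culture over naive (x axis) for each of the 30 genes (y axis, grouped by role from synthesis at the top to storage at the bottom), with the scanner error as bars; dotted lines mark 2-fold. Open symbols with arrows are lower bounds for Vldlr, and most synthesis enzymes lie to the right of the 2-fold line while Scap and Abcg1 lie to the left of 0.

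How the 2 dyes are balanced changed these levels. Centring each array on its median in place of loess moved the median of all measured genes to 0.33, 0.16 and -0.18, and the members' medians to 2.03, 2.04 and 1.15. The members' medians therefore stayed above those of all genes under both procedures. With median centring, 21 members were higher and 1 lower in Th2, where 25.4% of all genes were higher and 7.41% lower. In Th9 20 were higher and 0 lower, against 21.5% and 11.4% of all genes, and in iTreg 15 were higher and 2 lower, against 8.18% and 12%. The members that changed sign between the procedures were Ebp (Th2 and Th9), Dhcr7 (iTreg), Npc1 (Th2 and iTreg) and Npc2 (Th9).

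**Figure D2:**
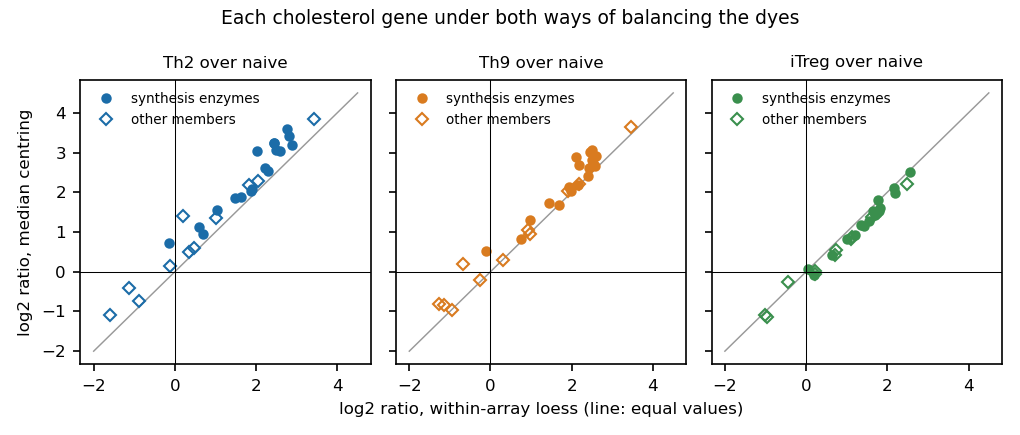
Log2 ratio of each measured gene after within-array loess (x axis) and after median centring (y axis), 1 panel per culture, with filled circles for synthesis enzymes, open diamonds for the other members and a line of equal values. Most points lie above the line in Th2 and below it in iTreg, in the direction of the shift of all genes (0.33 and -0.18).

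Of the 8 enzymes from acetyl-CoA to squalene, 7 were at least 2-fold higher in each culture, with medians of 2.34, 2.44 and 1.78. Hmgcs1, which condenses acetyl-CoA units into HMG-CoA, had naive signals of 11.77, 11.80 and 11.80 on the Th2, Th9 and iTreg arrays. Its culture signals were 14.52, 14.29 and 13.97. Each culture channel was thus well above every naive channel, and the ratios were 2.75 ± 0.33, 2.50 ± 0.32 and 2.18 ± 0.29. Hmgcs1 ranked 284, 384 and 263 among the measured genes.

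The next steps were higher by like amounts except at mevalonate kinase. Mvk, which adds the first phosphate to mevalonate, had the smallest Th2 and Th9 ratios of the 8, at 0.60 ± 0.21 and 0.97 ± 0.22, and 1.01 ± 0.23 in iTreg. A second Mvk probe gave 0.93, 0.98 and 0.93. Pmvk, which adds the second phosphate, had ratios of 2.45 ± 0.31, 2.46 ± 0.31 and 2.56 ± 0.32, and its second probe read 2.53, 2.60 and 2.56. Pmvk was the largest synthesis ratio in iTreg, and its 3 values lay within 1 error of each other. Mvd, which makes isopentenyl diphosphate, had ratios of 2.22, 2.43 and 1.80, and Idi1, its isomerase, 2.50, 2.49 and 2.19. Fdps, which joins the isoprenoid units into farnesyl diphosphate, had 2.03, 2.099 and 1.76. The scanner errors of these 3 genes ranged up to 0.32. Fdft1, squalene synthase and the first enzyme committed to sterols, had 2.58 ± 0.32, 2.53 ± 0.32 and 1.69 ± 0.27 by the probe used. The other Fdft1 probe was not well above background in either channel of any array.

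Acat2, the cytosolic thiolase that opens the pathway, had the least steady naive readings of the members. Its naive signals were 7.02, 7.09 and 7.66 (SD 0.351 over the 3 arrays, where the members' median SD was 0.057). The culture signals were 8.89, 8.78 and 8.29. The naive reading on the iTreg array was therefore higher than on the others while its culture reading was lower, and the ratios were 1.86 ± 0.35, 1.69 ± 0.32 and 0.63 ± 0.23. The processed signals gave 2.92, 2.54 and 0.93. Acat3, a closely related gene, had ratios of 1.98, 1.87 and 0.44, and cross-hybridisation between their probes was not tested.

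Of the 10 enzymes from squalene to cholesterol, 8 were at least 2-fold higher in each culture, with medians of 1.76, 2.06 and 1.49. Sqle, the squalene epoxidase that limits this branch, had naive signals of 10.55, 10.49 and 10.53 and culture signals of 13.37, 13.09 and 12.35. Lss, which closes the epoxide into lanosterol, had naive signals of 8.42, 8.35 and 8.25 and culture signals of 11.29, 10.93 and 9.45. In both genes the naive readings were steady, all culture readings were higher, and iTreg was the lowest of the 3 cultures. The Sqle ratios were 2.82 ± 0.34, 2.60 ± 0.33 and 1.81 ± 0.27. Those of Lss were 2.87 ± 0.36, 2.58 ± 0.33 and 1.20 ± 0.24, a fold of 7.33 in Th2 and 2.30 in iTreg.

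The demethylation and reduction steps that follow were higher as well. Cyp51, which removes a methyl group from lanosterol, had ratios of 2.28 ± 0.32, 2.14 ± 0.31 and 1.75 ± 0.29. Tm7sf2, a sterol reductase, had 1.48 ± 0.24, 1.94 ± 0.28 and 1.42 ± 0.25, and its second probe 1.15, 1.62 and 0.98. Msmo1, the oxidase that starts removal of the remaining methyl groups, had 2.44 ± 0.31, 2.17 ± 0.29 and 1.64 ± 0.26. Its partners in that removal were also at least 2-fold higher in each culture by the probe used. Nsdhl, the decarboxylating dehydrogenase, had 1.62 ± 0.27, 1.98 ± 0.29 and 1.56 ± 0.26, and its second probe read lower, at 0.70 in Th2, the only array where that probe was above background in both channels. Hsd17b7, the keto-reductase, had 1.89 ± 0.31, 2.39 ± 0.34 and 1.72 ± 0.30, and 1.74, 2.23 and 1.46 by its second probe.

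The last steps differed from those before them. Ebp, the isomerase that moves the ring double bond, had naive signals of 13.24, 13.28 and 13.30 and culture signals of 13.10, 13.17 and 13.36. Its ratios of -0.14, -0.11 and 0.06 were each smaller than the scanner error of 0.20, but under median centring Ebp read 0.71 in Th2 and 0.52 in Th9. Sc5d, the desaturase that acts after Ebp, had 1.04 ± 0.23, 1.43 ± 0.25 and 1.36 ± 0.24. Dhcr7, the reductase that makes cholesterol from its immediate precursor, had 0.68 ± 0.21, 0.76 ± 0.22 and 0.20 ± 0.21. Dhcr7 was thus under 2-fold in every culture, and its iTreg value turned to -0.08 under median centring.

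Uptake and transfer held the largest differences of the 30 genes. Vldlr, a lipoprotein receptor, was not well above background in the naive channels, with signals of 6.34, 6.18 and 6.20. Its culture signals were 11.46, 11.16 and 10.44. Vldlr was therefore at least 30.4-fold, 24.8-fold and 15.4-fold higher than naive, a bound set against the higher of its own naive signal and the dimmest signal well above background. These bounds rest on 1 probe, since the other Vldlr probe was not above background in either channel of any array. Stard4, which carries cholesterol between membranes, had naive signals of 9.02, 8.95 and 8.96 and culture signals of 12.45, 12.43 and 11.45. Its ratios of 3.44 ± 0.40, 3.47 ± 0.40 and 2.49 ± 0.33 ranked 118, 132 and 182 among measured genes. The second Stard4 probe gave 3.02, 2.71 and 1.32, and among second-probe readings above background in both channels its iTreg value alone lay over 1 log2 unit from the probe used.

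**Figure D3:**
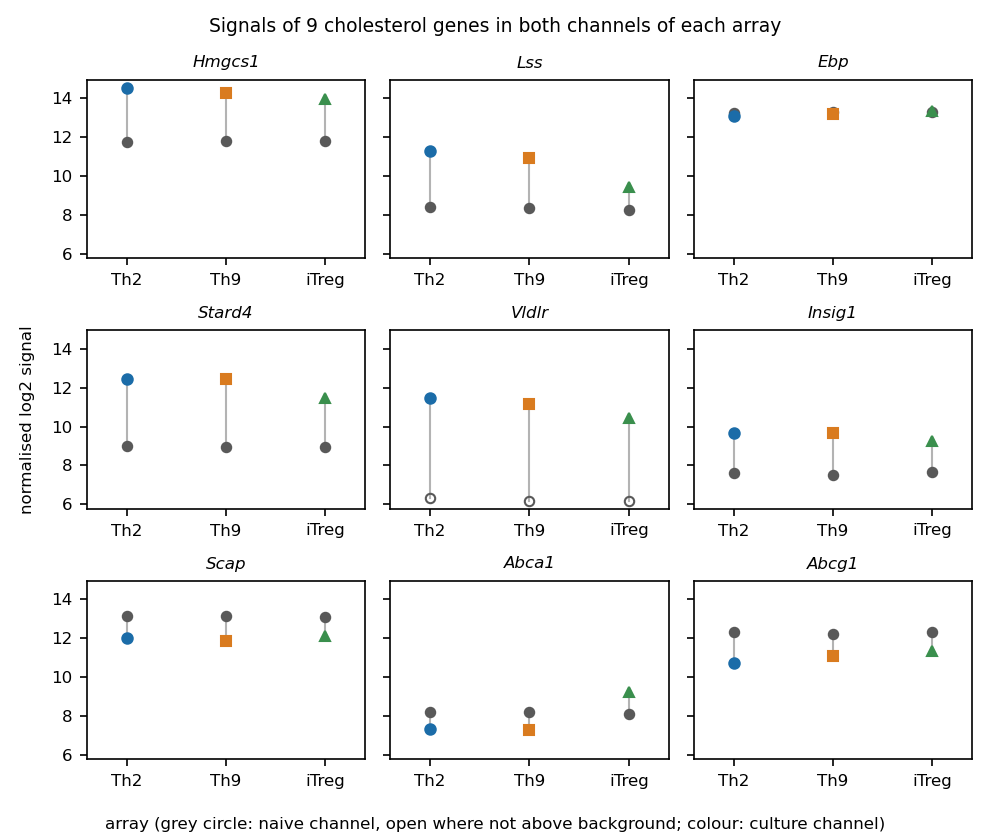
Normalised log2 signal (y axis) in the naive channel (grey circles, open where not above background) and the culture channel (coloured symbols) of each array (x axis) for 9 of the genes. The naive circles sit at nearly 1 height across arrays, Hmgcs1 lies between 13.97 and 14.52 in the cultures, and Abca1 is above its naive reading on the iTreg array and below it on the Th2 and Th9 arrays.

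Among the 5 sterol sensing genes, the retention proteins were higher and the escort lower. Insig1, which holds the SREBP complex in the endoplasmic reticulum and is itself an SREBP target, had ratios of 2.06 ± 0.32, 2.19 ± 0.33 and 1.61 ± 0.28. Insig2, its relative with the same retaining role, had 1.83 ± 0.26, 1.90 ± 0.28 and 1.11 ± 0.24, and 1.36, 1.57 and 0.69 by a second probe. The iTreg value of Insig2 thus crossed the 2-fold line with the choice of probe. Srebf2, which encodes SREBP-2, sat at that line, with 1.00 ± 0.22, 0.93 ± 0.22 and 0.70 ± 0.22, and 1.30, 1.03 and 0.46 by its second probe. Srebf1, which encodes SREBP-1 of fatty acid synthesis, was within 2-fold of naive, at 0.35, 0.30 and 0.21, each with an error of 0.22. Scap, the escort of SREBP, had naive signals of 13.11, 13.13 and 13.10 and culture signals of 11.99, 11.86 and 12.10. Every culture reading of Scap lay below every naive reading, with ratios of -1.12 ± 0.23, -1.27 ± 0.23 and -1.0 ± 0.22. Under median centring they were -0.42, -0.81 and -1.09, the same direction but over 2-fold in iTreg only.

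The exporters were lower than naive in Th2 and Th9 and parted in iTreg. Abcg1, which passes cholesterol to lipoprotein particles, had naive signals of 12.30, 12.23 and 12.30 and culture signals of 10.70, 11.09 and 11.34. Its ratios were -1.61 ± 0.25, -1.14 ± 0.23 and -0.96 ± 0.22, so it was at least 2-fold lower in Th2 and Th9. Under median centring it was -1.10, -0.84 and -1.13, at least 2-fold lower in Th2 and iTreg. Abca1, which loads cholesterol onto lipid-poor apolipoproteins, had naive signals of 8.20, 8.22 and 8.10 and culture signals of 7.32, 7.27 and 9.23. Abca1 was therefore below naive in Th2 and Th9 and above it in iTreg, with ratios of -0.88 ± 0.26, -0.95 ± 0.26 and 1.13 ± 0.24. The processed signals gave -1.51, -1.42 and 1.37, past 2-fold in each culture, and median centring gave -0.73, -0.97 and 0.88, within 2-fold in each. It was the member whose culture signals varied most, with an SD of 1.12 over the 3 culture channels against a median of 0.293 for the members.

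Markers of myeloid cells, which also express Abca1, were read beside it. The summed signal of the 7 macrophage and monocyte markers with a probe was 8685.7, 8373.7 and 18073 in the Th2, Th9 and iTreg channels and 17790.5 to 20366.8 in the naive channels. Of these 7 markers, 2, 3 and 3 were above background in the Th2, Th9 and iTreg channels. Itgam had ratios of -1.15, -1.18 and -0.14, whereas Csf1r had -0.60, -0.61 and -0.60. Lyz2 and Mrc1, also on that list, were well above background in every naive channel and in no culture channel. Dendritic cell markers summed to 26135.9, 24536.4 and 40974.2 in the cultures and 40637.9 to 52441 in the naive channels. These sums followed Siglech, with ratios of -1.003, -1.071 and 0.024. Itgax, on the same list, was lower in iTreg too, at -1.834, -1.977 and -1.853, and in Th9 its culture reading was not above background. Flt3 was above background in the naive channels only, and Xcr1 in neither channel of any array. Neutrophil markers summed to 409.7, 695.4 and 966.3 in the cultures and 6378.9 to 6517.5 in the naive channels. For NK cell markers the sums were 2642.2, 2314.4 and 4653.8, and 13055.4 to 13252.4. Of these 4 markers, 2, 2 and 1 were above background in the cultures. The 1 in iTreg was Nkg7, with ratios of -1.67, -1.90 and -0.76. Ncr1, Klrb1c and Klra8 were above background in the naive channel only on the iTreg array. The part of any of these cells in the Abca1 values was not tested, and fewer cells of a type and less RNA per cell cannot be told apart in bulk RNA.

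Lysosomal release and storage stayed within 2-fold of naive. Npc1, which moves cholesterol out of lysosomes, had -0.11, -0.26 and 0.21, with errors of 0.21. Npc2, its soluble partner, had naive signals of 14.40, 14.53 and 14.53 and culture signals of 14.61, 13.85 and 14.09. Npc2 was thus highest in Th2, with ratios of 0.21 ± 0.20, -0.68 ± 0.21 and -0.44 ± 0.21, though median centring placed it at 1.40 in Th2 and 0.18 in Th9. Soat1, which esterifies cholesterol for storage, had 0.48 ± 0.24, 0.96 ± 0.25 and 0.73 ± 0.24. Processed signals in place of loess values put Soat1 past 2-fold in Th9 (1.28) and iTreg (1.05).

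Between the cultures, ratios against naive were subtracted and the scanner errors of both arrays combined. Th9 and Th2 differed little, in the members as over all measured genes. None of 29 members was at least 2-fold higher and none 2-fold lower in Th9, where 1.28% of 10449 genes were higher and 1.35% lower. The median difference of all measured genes was -0.02. That of the members was 0.01, with 15 members above 0 and 14 below. Only Npc2 lay over 2 combined errors from 0, at -0.89 ± 0.30, and median centring took it to -1.22. Among synthesis enzymes the differences ran from -0.29 for Lss to 0.50 for Hsd17b7.

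In iTreg against Th2, 1 member exceeded the 2-fold line upwards and 3 downwards, where 6.87% of 10530 genes were higher and 6.69% lower. Abca1 was higher by 2.01 ± 0.36, a fold of 4.04. Lss was lower, at -1.67 ± 0.44, as were Acat2 at -1.23 ± 0.42 and Sqle at -1.01 ± 0.44. The culture channels were also compared directly, where the naive readings enter only through the normalisation. Abca1 then differed by 1.91, Lss by -1.84 and Sqle by -1.03, but Acat2 by only -0.60. Beyond these genes, Fdft1 (-0.89), Insig2 (-0.72) and Npc2 (-0.65) lay over 2 combined errors below 0. Stard4 was at -0.94 ± 0.52 and Msmo1 at -0.80 ± 0.41. Abcg1 (0.65), Mvk (0.41), Sc5d (0.32) and Pmvk (0.11) were among those that read the other way, each within 2 combined errors of 0, and all 4 turned negative under median centring (-0.04, -0.30, -0.38 and -0.73).

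Against Th9 the picture for iTreg was close to that against Th2, the iTreg array being shared. Abca1 was the 1 member at least 2-fold higher, by 2.08 ± 0.36, and Lss (-1.38 ± 0.41) and Acat2 (-1.06 ± 0.40) were the 2 at least 2-fold lower by ratio, where 6.8% of 10470 genes were higher and 6.29% lower. Compared directly by culture channel, Acat2 differed by -0.49, within 2-fold, and Fdft1 by -1.02, past it. By ratio, Insig2 (-0.79) and Fdft1 (-0.84) were the other members over 2 combined errors from 0. Over the measured members the median difference was -0.34 against Th9 and -0.31 against Th2, while all genes had medians of 0.01 and 0.00. Genes whose mean ratio over the 3 arrays was at least 2-fold above naive were also read as a set. In the same order, their medians were -0.56 and -0.49 for 18 members, and -0.60 and -0.58 for all 1355 such genes. At least 2-fold lower in iTreg were 11.1% and 16.7% of these members, against 30.7% and 30.1% of all such genes. A lower iTreg value was thus common among raised genes and not particular to the members.

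**Figure D4:**
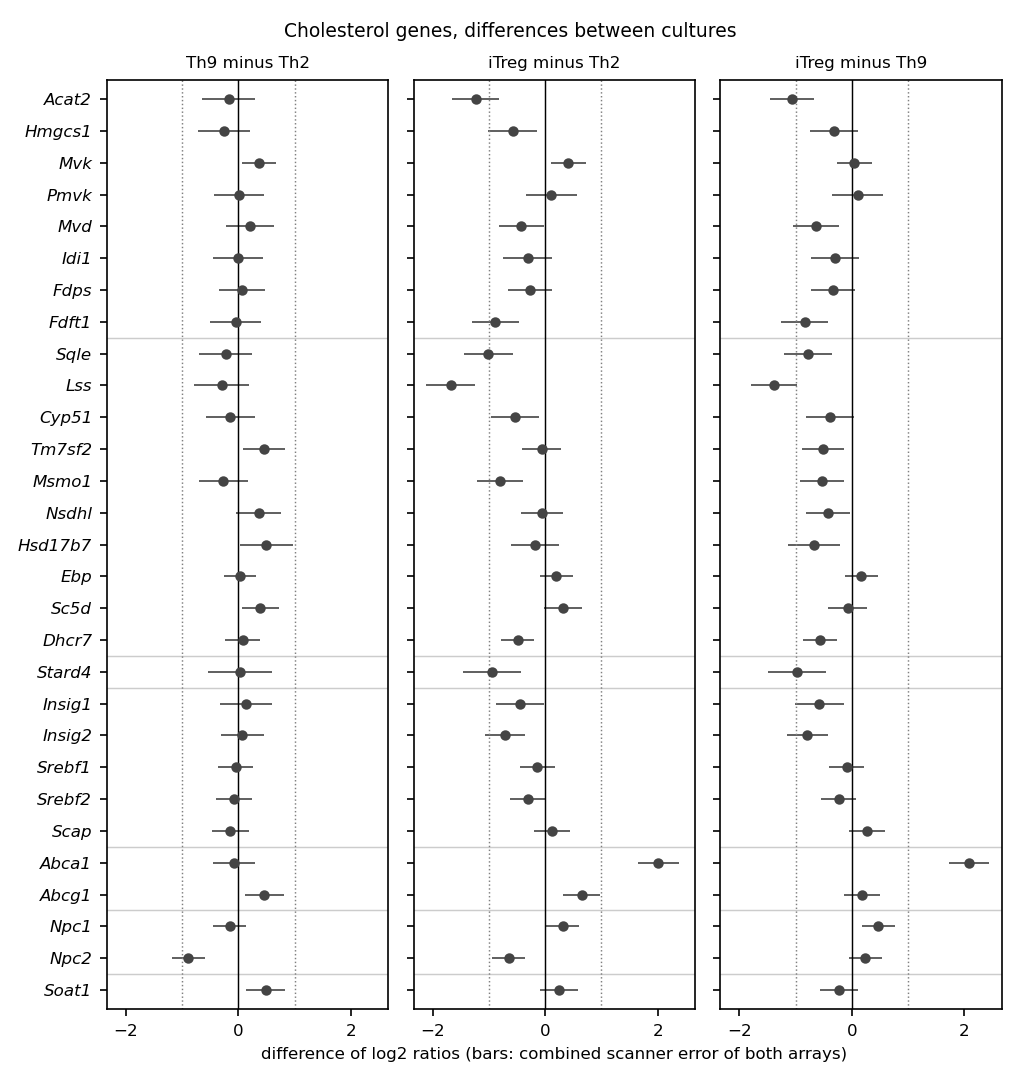
Difference of log2 ratios (x axis) for each of the 29 measured genes (y axis) between each pair of cultures, with the combined scanner error of both arrays as bars and dotted lines at 2-fold. Points in the Th9 minus Th2 panel lie within 2-fold, while Abca1 stands at 2.01 and 2.08 and Lss at -1.67 and -1.38 in the iTreg panels.

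The number of members lower in iTreg depended on how the dyes were balanced. Under median centring 14 of 29 members were at least 2-fold lower and 1 higher in iTreg than in Th2, where 26.8% of all genes were lower and 2.27% higher. Against Th9, 9 were lower and 1 higher, where 16.9% of all genes were lower and 3.06% higher. That procedure moved the median difference of all genes to -0.59 and -0.37, and the members' to -0.94 and -0.83. For genes with a mean ratio at least 2-fold above naive it gave -1.22 and -1.03, and -1.17 and -1.03 for the members among them. Comparing the culture channels directly left the median of all genes at 0.01 and 0.02. It put the members' median at -0.38 against each of Th2 and Th9. Those channel signals were themselves taken after loess, so this comparison cannot decide how the dyes should be balanced.

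Other genes of sterol metabolism, in lists of fixed membership, were read the same way. Of 13 genes of the other branches of mevalonate, 2, 2 and 0 were at least 2-fold higher and 1, 2 and 2 lower, with medians of -0.07, -0.10 and -0.13. Rabggtb, a subunit of the enzyme that attaches geranylgeranyl groups to Rab proteins, had 2.12, 2.12 and 0.58, whereas its partner Rabggta had -0.87, -1.54 and -1.61. Ggps1, which makes the geranylgeranyl donor from farnesyl diphosphate, had -1.38, -1.45 and -1.22, and Dhdds, of dolichol synthesis, 0.71, 0.92 and 0.81. This list was thus mixed in direction and its medians lay near those of all genes.

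Of the wider sensing and degradation machinery, 12, 13 and 13 of 14 genes were measured, of which 1, 2 and 1 were higher and 1, 2 and 0 lower. Mbtps1, the protease that cleaves SREBP in the Golgi, had -1.57, -1.28 and -0.40, and Trib1, a pseudokinase, 1.98, 1.51 and 1.63. Erlin1, of sterol-driven enzyme degradation, had 0.89, 1.65 and -0.14. Of 19 measured genes of sterol transport and ester metabolism, 5, 4 and 2 were higher and 3 lower in each culture. Scarb1, the receptor for high density lipoprotein, had 2.62, 2.57 and 1.51, and Osbpl3, an oxysterol-binding protein, 1.01, 2.24 and 1.91. The ester hydrolases were lower, with -1.89, -1.91 and -1.26 for lysosomal Lipa and -1.55, -1.57 and -1.14 for Nceh1.

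LXR, its targets and the enzymes of oxysterols had the lowest medians of the lists, at -0.88, -0.89 and -0.56 over 12, 11 and 11 measured genes of 17. None was higher in Th2 or Th9 and 2 were higher in iTreg, while 6, 5 and 4 were lower. Mylip, a ubiquitin ligase that removes lipoprotein receptors, had -3.39, -3.12 and -2.14. Smpdl3a, a phosphodiesterase, had -4.12, -2.59 and 1.11, so like Abca1 it was below naive in Th2 and Th9 and above it in iTreg. Sult2b1, a sterol sulphotransferase, had 0.62, 0.98 and 1.08, and Cyp46a1, a cholesterol hydroxylase, 0.12, 0.00 and 0.00.

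Of 11 lipoprotein receptors and partners outside the members, 7, 7 and 6 were measured, and 1 was at least 2-fold lower in each culture. That was Sorl1, a sorting receptor, at -2.29, -2.69 and -1.42. Lrp6 had -0.78, -0.12 and -0.52, the chaperone Lrpap1 0.82, 0.73 and 0.30, and Lrp5 0.22, 0.20 and 0.18. Among the 18 SREBP targets of fatty acid synthesis, 6 of 13 measured were higher in Th2, 7 of 14 in Th9 and 3 of 13 in iTreg, and 1, 0 and 0 were lower. Scd2, a stearoyl-CoA desaturase, had 4.82, 4.61 and 3.50, and Acsl3, which activates fatty acids, 1.83, 1.93 and 1.73. Acss2, which activates acetate, had -1.04, -0.81 and -0.64, and Scd3 -0.87, -0.95 and 0.21.

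Among electron donors and other late enzymes, 5, 4 and 3 of 11 measured genes were higher and none lower. Tmem97, a sterol-responsive membrane protein, had 3.12, 3.10 and 1.67, the largest of that list. Por, the electron donor of Cyp51 and Sqle, had -0.31, -0.38 and -0.63. Por thus lay within 2-fold of naive in each culture.

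**Figure D5:**
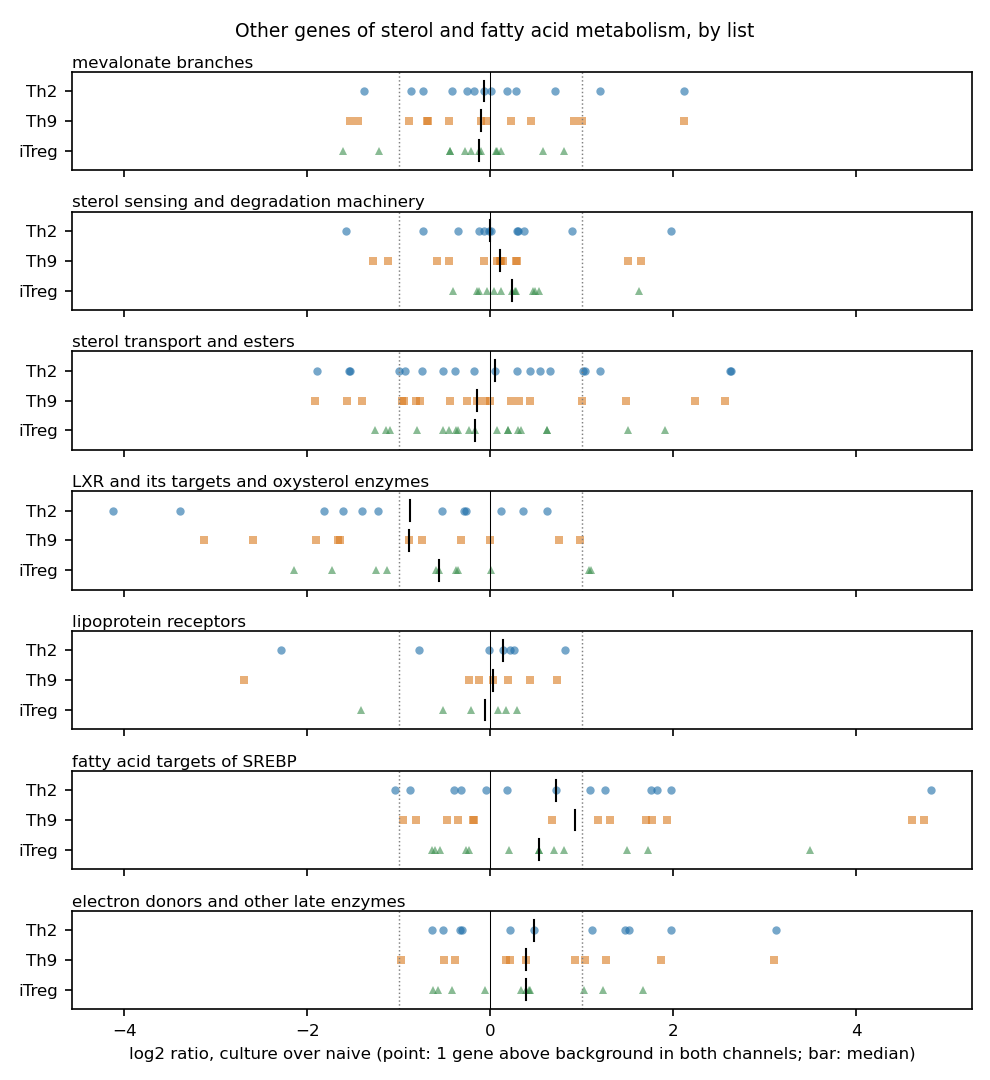
Log2 ratio of culture over naive (x axis) of each measured gene outside the 30, by list and culture (y axis), with the list's median as a vertical bar and dotted lines at 2-fold. The LXR list has its medians below 0 (-0.88, -0.89 and -0.56), while the fatty acid list reaches 4.82 with Scd2.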

How the data were processed

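Per the file headers, each deposited scanner file gives median spot and background intensity of both channels from Agilent Feature Extraction 11.0.1.1, while version 9.3.2.1 is named in the submitters' processing notes. Processed intensity, the log10 ratio (Cy5 to Cy3) and the error of that log10 value also stand there, per the file headers, beside a p-value of the software's error model, which was not used. The deposited series values were found to be the log2 ratio of processed signals plus a constant of 0.056, 0.021 and 0.037 for Th2, Th9 and iTreg, within 0.001 for 99.3% to 99.4% of probes. Their medians were 0.138, 0.259 and 0.283, and how the authors set the constant is not given in the sources used here.

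Median intensities were corrected by normexp (offset 50) and loess was applied to the log2 ratios of each array (limma 3.58.1 and data.table, version 1.17.8, in R 4.3.3). Signals of single channels were taken after loess and scaled by quantiles of mean intensity between arrays. Further steps used Python 3.11.15, pandas 2.3.3, numpy 2.4.6 and matplotlib 3.10.9. Spots of a probe were averaged, and control and outlier spots (255 to 292 per array) were dropped. Of 39429 probes, 26049 (66.1%) matched a gene of GRCm38.p6 by RefSeq accession. The array was designed on an older assembly, so probes have names and no coordinates. The brightest probe of each gene was used.

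Each culture has 1 array, so no test or p-value across cultures was possible, and 1 dye orientation leaves gene-specific dye effects in every ratio against naive. They cancel between cultures. The arrays lay on 1 slide. The members and lists were chosen with earlier results of these data known. From each other list, the genes with the 2 highest and 2 lowest mean ratios were named, as were markers read beside a result; some genes the rule takes are not reported here. The steps were tested on simulated data. Alternatives were median centring, offset 16, processed signals, the mean over probes, no filter on dim spots, the series values, a 1.5-fold size, and a direct comparison of culture channels.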

Additional observations from a re-analysis of the deposited data

Results flagged for a closer look

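Abca1 was the member whose cultures lay on opposite sides of naive by more than 2 scanner errors, with log2 ratios of -0.879 in Th2, -0.949 in Th9 and 1.134 in iTreg. Each culture was 1 array, and the difference between them was not tested.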

How the results depend on the processing

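The members' medians ranged from 1.59 to 2.03 in Th2, 1.78 to 2.22 in Th9 and 1.15 to 1.49 in iTreg over the settings tried, and members at least 2-fold above naive numbered 19 to 21, 18 to 20 and 15 to 20 where the 2-fold size was kept. Counts of lower members moved more. Under median centring they were 1 in Th2, 0 in Th9 and 2 in iTreg against naive, 1 in Th9 against Th2, 14 in iTreg against Th2 and 9 in iTreg against Th9. With offset 16, processed signals or the series values, 0 were lower in iTreg than naive, since Scap there lies at 2-fold. At 1.5-fold, 4 were lower in Th9 and 2 in iTreg than naive, 1 in Th9 than Th2, 8 in iTreg than Th2 and 8 in iTreg than Th9, and 2 were higher in iTreg than Th2. Compared directly by culture channel, 5 of 30 were lower in iTreg than Th2, namely Lss, Sqle, Fdft1, Stard4 and Vldlr, the last not measured in naive cells, while Acat2 was not among them. Of 87 member ratios, those that moved by more than their scanner error numbered 42 under median centring, 22 with the series values, 16 with processed signals, 2 with offset 16, 2 with the mean over probes and 0 with no filter on dim spots. No paired analysis was possible because each culture has 1 array. The median scanner error of a single ratio was 0.217 to 0.225, which limits what can be read from ratios below about that size. For differences between cultures the combined error was larger, from 0.289 for Ebp to 0.567 for Stard4 among measured members. Variation between separate cultures was not measured here.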
